A study of Saccharomyces cerevisiae with 6 samples.

Results

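Transcript levels of 34 genes for heat shock chaperones and their cochaperones were compared between a budding yeast strain that lacks VPS1 and wild type yeast. The genes were taken from a list of cytosolic and mitochondrial chaperones, cochaperones and sequestrases. All 34 were measured, among 5449 yeast genes on the arrays. VPS1 encodes a dynamin-like GTPase that acts in vacuolar protein sorting. The vps1 deletion group held 3 arrays of the strain Y05072 and the wild type group 3 arrays of BY4741, a haploid laboratory strain that carries deletions in HIS3, LEU2, MET17 and URA3. Cells of both strains were cultured at 30 degrees in a minimal medium with supplements, with no heat shock named in the labels. RNA came from whole cultures, so a change in every cell and a change in some of them cannot be told apart. The series design calls the 3 replicates of each strain biologically independent. The deletion was studied in a single labelled strain, so a change that belongs to this isolate and a change that belongs to loss of VPS1 cannot be told apart. The comparison asks how transcript levels, including those of signalling pathways, differ when this dynamin is absent.

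Chaperones bind unfolded or aggregated proteins and hand them on to folding, storage or degradation. In yeast, the Hsp70 and Hsp90 families do most of this work in the cytosol, helped by J-proteins, nucleotide exchange factors and other cochaperones, while small heat shock proteins and sequestrases gather misfolded protein into deposits from which the Hsp104 disaggregase can extract it. Mitochondria hold a related set of their own. Heat shock factor Hsf1 drives many of these genes through heat shock elements in their promoters, and some of them, such as HSP26, HSP42 and HSP104, also respond to the general stress factors Msn2 and Msn4. Several chaperones come as a pair of near-identical paralogues, of which typically one is made at all times and the other mainly under stress.

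Values are log2 signals of 1 probe set per gene after quantile normalization, which gives all 6 arrays the same distribution and is called the quantile scale below. The deposited values were higher in the vps1 deletion strain by a median of 0.51 over all genes and by 0.48 over 1746 probe sets whose names are not in the yeast gene table, so changes are given relative to that shift. The median difference of all genes was -0.041 on the quantile scale. Signals correlated over genes at 0.985 to 0.995 within strains and at 0.964 to 0.975 between strains. VPS1 stood at 2.54, 2.40 and 2.23 on the vps1 deletion arrays, against 10.32, 9.98 and 9.95 on the wild type arrays, and was below background on the 3 deletion arrays, at least 91.5-fold lower. The 6 a-specific genes checked were above background on all arrays, while the alpha-factor gene MF(ALPHA)1, at 3.95 in the vps1 deletion strain and 4.34 in wild type, lay near the background level of 3.53 to 3.59. The alpha-specific genes STE3 and SAG1, however, were also well above background on all 6 arrays. Their means were 7.22 and 8.65 in the vps1 deletion strain and 6.69 and 8.28 in wild type. Several mating-type genes differed between the strains: STE2, BAR1, MFA2 and AGA2 fell, by 0.47, 0.57, 0.85 and 1.37, STE6 and MFA1 did not pass, at -0.41 and -0.32, and the alpha-specific STE3 rose by 0.54. SAG1 and MF(ALPHA)1 did not pass, at 0.37 and -0.38. The groups did not overlap for STE6, MFA1 and SAG1. With the replicate number as a block, described below, STE6 and MFA1 fell and SAG1 rose (adjusted p = 0.0124, 0.0253 and 0.0105, limma). MF(ALPHA)1 did not pass with it (0.0700). The part of the mating-type genes in the chaperone results was not tested. All 34 chaperone genes were above background on all 6 arrays, at mean levels between 7.92 for CUR1 and 13.81 for SSB1.

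Most chaperone genes did not pass the test. BTN2, a sequestrase, HSP78, the mitochondrial disaggregase, and HSP104, the cytosolic disaggregase, rose in the vps1 deletion strain, by 3.18-fold, 2.32-fold and 1.98-fold. HSC82, the constitutive cytosolic Hsp90 gene, and SSA2, a constitutive cytosolic Hsp70 gene, fell, to 0.778-fold and 0.791-fold of wild type. The test was limma's moderated test with Benjamini-Hochberg adjustment over all 5449 genes and a threshold of 0.05. Of the 34 genes 3 rose, or 8.82%, where 6.77% of all genes did, and 2 fell, or 5.88%, where 6.28% of all genes did. These shares are near those of all genes, so the counts say nothing particular of the chaperones. The share that rose at least 2-fold was 5.88%, from BTN2 and HSP78, against 2.15% of all genes. No chaperone gene fell by 2-fold or more, where 0.771% of all genes did. The median difference of the 34 genes was -0.042, against -0.041 over all genes, and 15 of the 34 differences were positive, where 43.2% of all genes had a positive one. Without quantile normalization, on the deposited values, 25 of the 34 passed as higher and 0 as lower, where 76.0% of all genes were higher and 0.954% lower. The vps1 deletion arrays lay wholly above wild type for 5 genes, or 14.7%, and wholly below for 7, or 20.6%, where 15.0% and 19.0% of all genes did so.

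**Figure D1:**
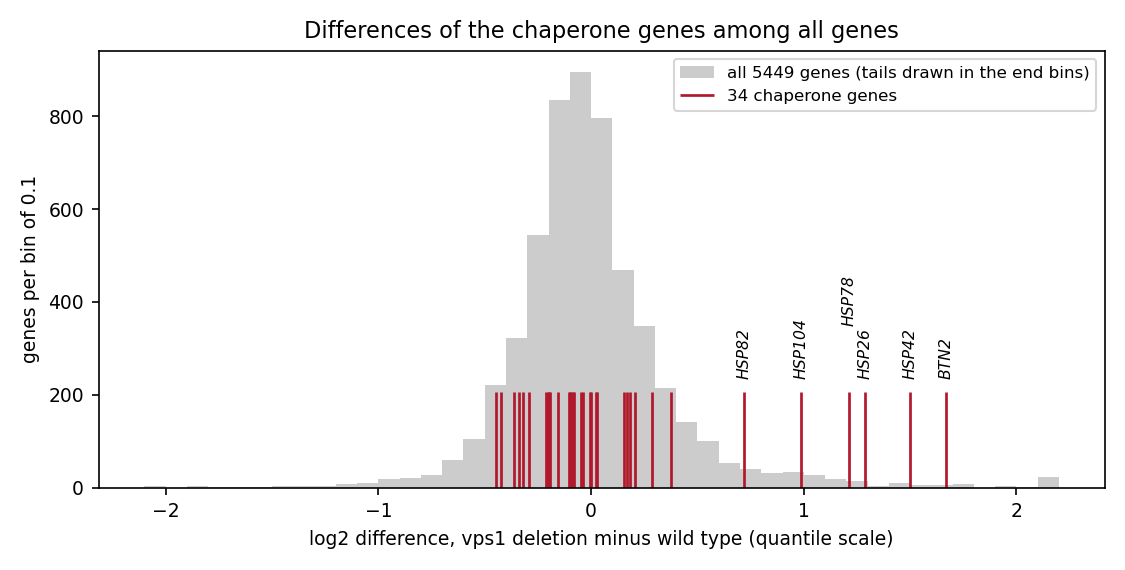
Histogram of the log2 difference, vps1 deletion minus wild type, on the quantile scale over all 5449 genes (grey, genes per bin of 0.1, tails drawn in the end bins), with a red line for each of the 34 chaperone genes. Most lines lie in the bulk of all genes, and 6 lie apart on the right, from HSP82 at 0.72 to BTN2 at 1.67.

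The replicate number in the labels also carried information. Deviations of the 34 chaperone genes from their strain means correlated at 0.71, 0.77 and 0.18 between same-numbered arrays. Over all genes the values were 0.67, 0.65 and 0.29, so the pattern was not particular to the chaperones. With the number as a block in the fit, 8 chaperone genes rose (23.5%, against 14.4% of all genes) and 6 fell (17.6%, against 16.4%). The additional rises were HSP26, HSP42, HSP82, SSA4 and SNL1, and the additional falls CUR1, HSP60, CPR7 and SIS1. No gene that passed without the block failed with it. The blocked adjusted p is given beside each gene whose call it changed.

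**Figure D2:**
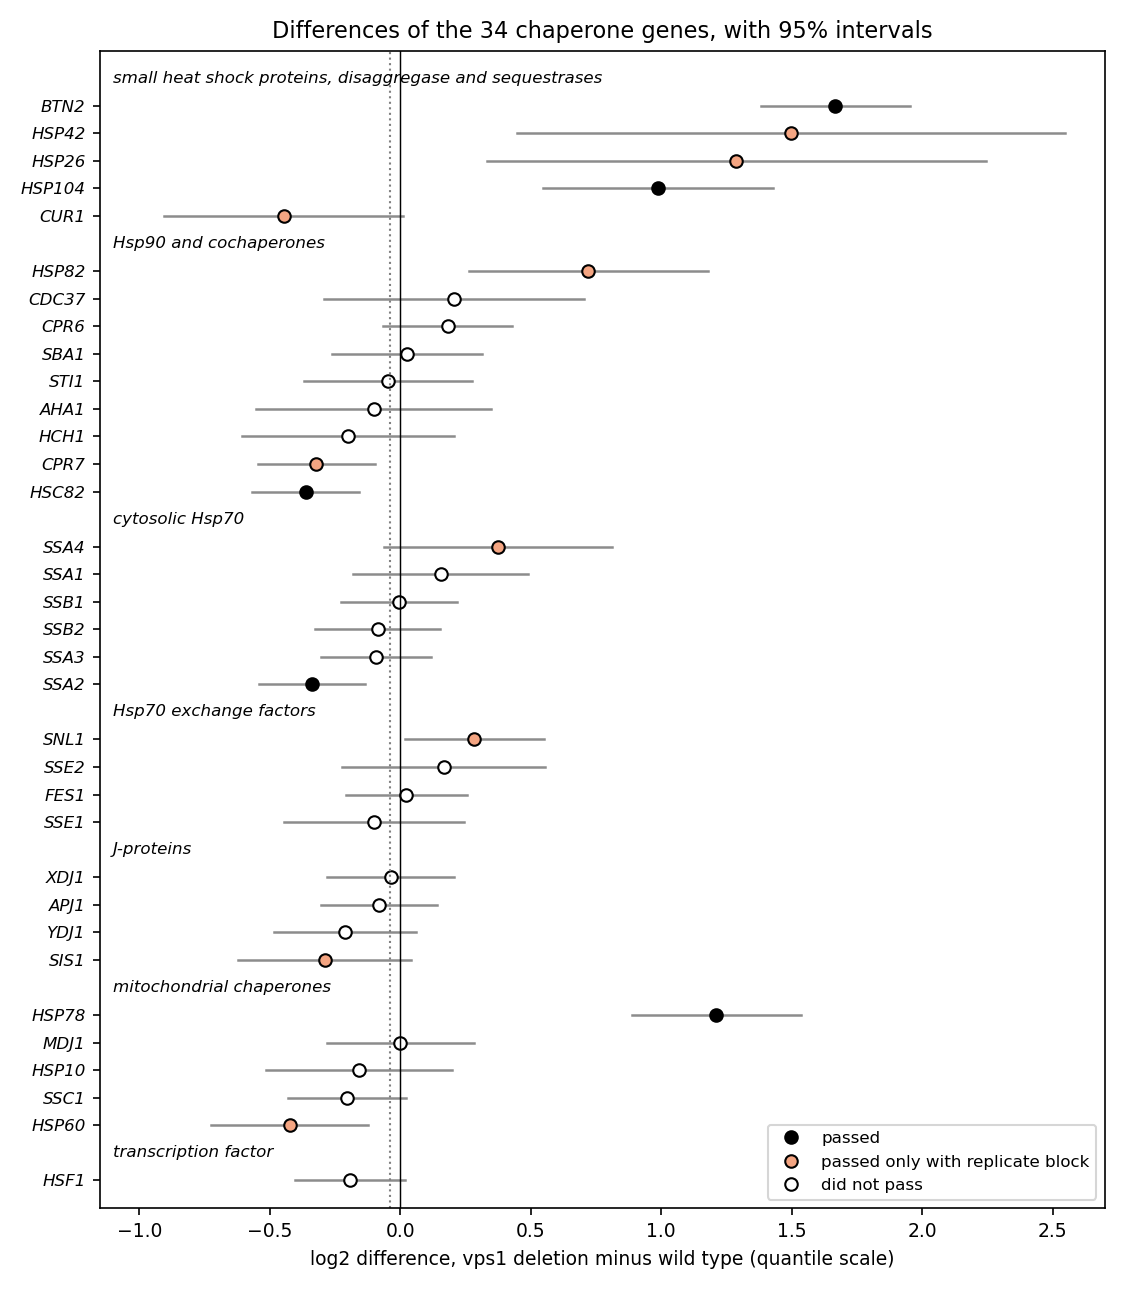
Log2 difference, vps1 deletion minus wild type (quantile scale), of each of the 34 chaperone genes, grouped by role, with the 95% confidence interval of limma as a bar (n = 3 arrays per strain). Black points passed the test, orange points passed it only in the blocked fit and white points did not pass; the dotted line is the median of all genes at -0.041.

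The small heat shock proteins, the disaggregase and the sequestrases held both the highest difference, that of BTN2, and the lowest, that of CUR1. Of these 5 genes 2 rose and none fell, where 6.77% of all genes rose and 6.28% fell. With the block 4 rose and 1 fell, where 14.4% and 16.4% of all genes did. BTN2 encodes a protein that sorts misfolded proteins into deposits and takes part in late endosome to Golgi retrieval. Its signal was 10.50, 10.29 and 10.64 on the vps1 deletion arrays, against 8.93, 8.82 and 8.68 on the wild type arrays. The strains were separated by far more than their spread, with a difference of 1.67 ± 0.12 (log2, SE; adjusted p = 2.69e-04, limma). BTN2 ranked 39 from the top among the 5449 genes by difference. CUR1, the BTN2 paralogue, differed the other way on the quantile scale. It stood at 7.53, 7.93 and 7.64 in the vps1 deletion strain, against 7.83, 8.56 and 8.05 in wild type, and the strains overlapped. Its difference of -0.45 ± 0.20 did not pass (adjusted p = 0.180, and 0.0110 with the block, limma), and it was negative in each of the 3 pairs of same-numbered arrays. Without wild type replicate 2 it was -0.24 (adjusted p = 0.422).

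HSP104, the hexameric ATPase that pulls single proteins out of aggregates, rose by 0.99 ± 0.19 (log2, SE; adjusted p = 0.0151, limma). Its arrays read 11.41, 11.57 and 11.72 in the vps1 deletion strain, against 10.82, 10.14 and 10.77 in wild type. The groups did not overlap, and wild type replicate 2 was the lowest array. The call was lost without vps1 deletion replicate 2 or replicate 3 (adjusted p = 0.0511 and 0.0683), with differences of 0.99 and 0.92. HSP42, the small heat shock protein that is active in unstressed cells and gathers misfolded proteins in the cytosol, had the most uneven wild type values. It stood at 10.11, 9.40 and 10.27 in the vps1 deletion strain, against 9.51, 8.03 and 7.75 in wild type. Wild type replicate 1 lay above vps1 deletion replicate 2, so the groups overlapped. The difference was 1.50 ± 0.45 (adjusted p = 0.0712, and 0.0123 with the block, limma), and 2.04 without wild type replicate 1, where it passed (adjusted p = 0.00207). Without any 1 of the other 5 arrays it did not pass, with differences down to 1.15 and adjusted p up to 0.210.

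HSP26, a small heat shock protein whose assemblies bind unfolded proteins at heat shock temperatures, varied most between arrays of the vps1 deletion strain. Its signal was 11.63, 10.57 and 12.06 in the vps1 deletion strain, against 10.59, 9.49 and 10.31 in wild type. In both strains replicate 2 was the lowest, and vps1 deletion replicate 2 lay just below wild type replicate 1. Between arrays of the same number HSP26 was higher in the vps1 deletion strain by 1.04, 1.07 and 1.75. The difference of 1.29 ± 0.41 did not pass without the block and passed with it (adjusted p = 0.0834 and 0.00107, limma). It also passed, unblocked, without vps1 deletion replicate 2 (adjusted p = 0.0290), and did not pass without any 1 of the other 5 arrays, with differences down to 0.97 and adjusted p up to 0.232.

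**Figure D3:**
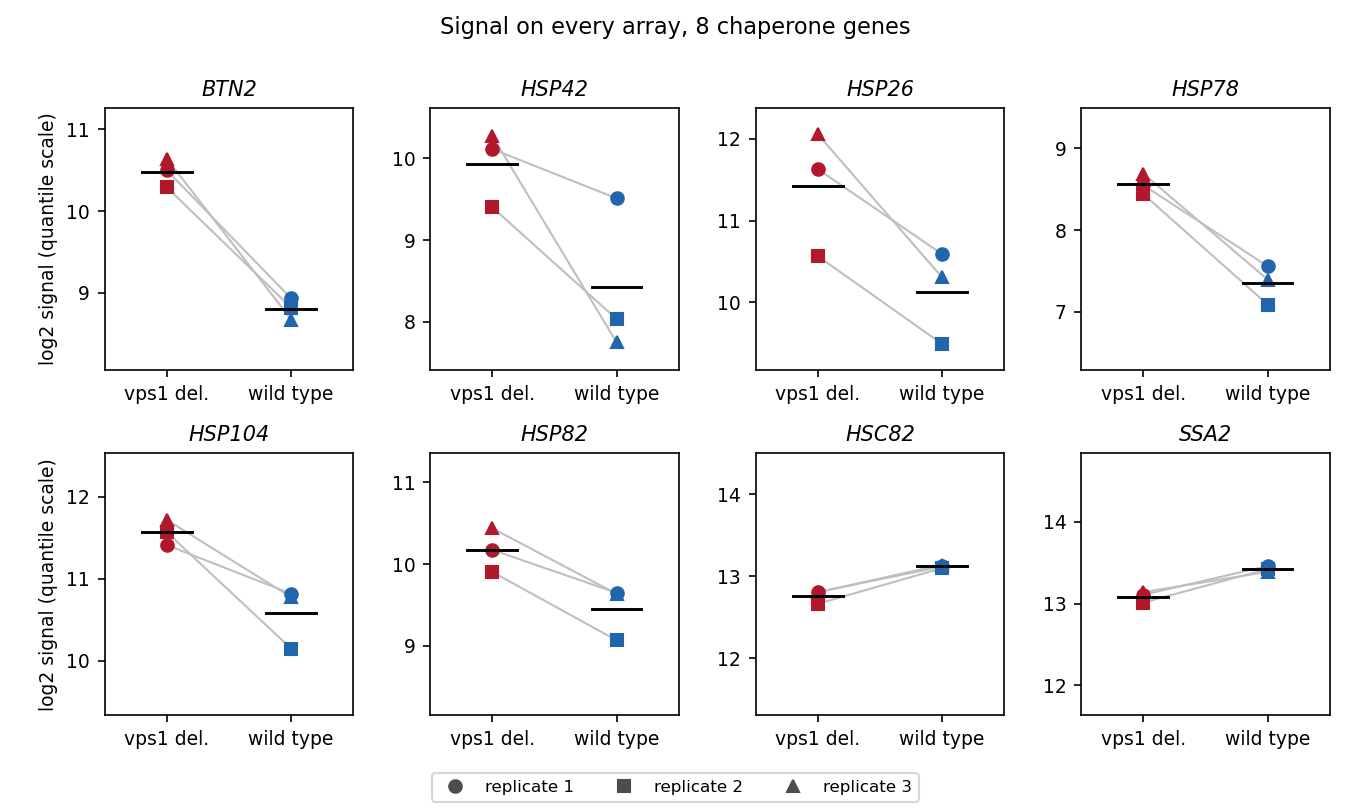
Log2 signal (quantile scale) on every array for BTN2, HSP42, HSP26, HSP78, HSP104, HSP82, HSC82 and SSA2, with the vps1 deletion strain in red on the left and wild type in blue on the right of each panel. Marker shapes give the replicate number, grey lines join arrays of the same number and black bars are means; all panels span the same log2 range. The line falls from left to right for each replicate of the first 6 genes and climbs for HSC82 and SSA2.

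Among the Hsp90 genes the 2 paralogues differed in opposite directions on the quantile scale. HSP82, the stress-inducible Hsp90, stood at 10.17, 9.90 and 10.44 in the vps1 deletion strain, against 9.65, 9.07 and 9.63 in wild type. The groups did not overlap, yet the difference of 0.72 ± 0.20 (log2, SE) just missed the threshold (adjusted p = 0.0525, and 0.00171 with the block, limma). It passed without wild type replicate 1 (adjusted p = 0.0381) and with cyclic loess (0.0483). It did not pass with median centring (0.0869) or without any 1 of the other 5 arrays, with differences down to 0.53 and adjusted p up to 0.165. HSC82, the constitutive Hsp90, stood at 12.81, 12.66 and 12.80 in the vps1 deletion strain, against 13.12, 13.10 and 13.14 in wild type. Its wild type values were nearly equal, and it fell by 0.36 ± 0.09 (adjusted p = 0.0370, limma). This call was lost when any 1 array was left out (adjusted p between 0.0539 and 0.107). It was also lost with cyclic loess in place of quantile normalization (0.0537). The difference kept its sign in those fits. On the deposited values HSC82 instead differed by 0.17 and HSP82 by 1.27, both positive.

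The 7 Hsp90 cochaperones did not pass in limma without the block on the quantile scale. CPR7 alone had an unadjusted p under 0.05 and passed with the block. CPR7, a cyclophilin that binds Hsp90, stood at 9.90, 9.85 and 10.02 in the vps1 deletion strain, against 10.17, 10.22 and 10.34 in wild type. The groups did not overlap, and the difference was -0.32 ± 0.10 (log2, SE; adjusted p = 0.0710, and 0.0185 with the block, limma). Without the block it passed with median centring (-0.44, adjusted p = 0.0346) and not with cyclic loess (-0.28, 0.107). CPR6, the other Hsp90-bound cyclophilin, differed by 0.18 ± 0.11. STI1, which bridges Hsp70 and Hsp90, differed by -0.048 ± 0.14 and SBA1, the p23 homologue, by 0.026 ± 0.12. For the ATPase activator AHA1 the difference was -0.10 ± 0.19, and for its relative HCH1 it was -0.20 ± 0.17. CDC37, which brings protein kinases to Hsp90, differed by 0.21 ± 0.21. The 95% intervals of these 7 genes lay between -0.61 and 0.70, so a 2-fold change lay outside each of them.

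The cytosolic Hsp70 genes gave 1 fall and no rise among 6, where 6.28% of all genes fell and 6.77% rose. SSA2, an abundant constitutive member, stood at 13.11, 13.01 and 13.14 in the vps1 deletion strain, against 13.46, 13.42 and 13.39 in wild type, without overlap. It fell by 0.34 ± 0.09 (log2, SE; adjusted p = 0.0440, limma). As for HSC82, the call was lost when any 1 array was left out (adjusted p between 0.0676 and 0.133) and with cyclic loess (0.0773). SSA2 was among 228 genes with a mean level of 13 or more, whose 5th and 95th percentiles of the difference were -0.19 and 0.20. HSC82 was among 331 genes with a mean level between 12 and 13, whose percentiles were -0.45 and 0.65, so its difference lay within that range. Whether probes near their signal limit bear on these falls was not tested.

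SSA4, the Hsp70 gene that is made under stress, stood at 9.07, 8.75 and 9.10 in the vps1 deletion strain, against 8.84, 8.20 and 8.77 in wild type. The groups overlapped slightly, and within each replicate number the vps1 deletion strain was higher. The difference of 0.37 ± 0.19 (log2, SE) passed only with the block (adjusted p = 0.234 without it and 0.0199 with it, limma). Without wild type replicate 2 it was 0.17 (adjusted p = 0.535). SSA1, another constitutive member beside SSA2, differed by 0.16 ± 0.14 and SSA3, a further inducible member, by -0.09 ± 0.09. The ribosome-bound Hsp70 genes SSB1 and SSB2 differed by -0.0052 ± 0.10 and -0.087 ± 0.10. The SSB1 value came from a probe set whose suffix marks probes shared with other genes, so SSB2 transcript may contribute to it. The second SSB1 probe set, without that mark, differed by -0.11.

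Exchange factors and J-proteins, which set the pace of the Hsp70 cycle, showed no call without the block in limma, and of these 8 genes SNL1 alone had an unadjusted p under 0.05. SNL1, a membrane-anchored exchange factor with a BAG domain, stood at 10.90, 11.01 and 11.04 in the vps1 deletion strain, against 10.52, 10.71 and 10.87 in wild type. The groups lay close but did not overlap, and the difference of 0.28 ± 0.11 (log2, SE) passed with the block (adjusted p = 0.147 without it and 0.0354 with it, limma). The Hsp110 genes SSE1 and SSE2 differed by -0.10 ± 0.15 and 0.17 ± 0.17, and FES1, a cytosolic exchange factor, by 0.023 ± 0.10.

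The 4 genes grouped as J-proteins did not pass without the block. SIS1, an essential J-protein of the cytosol and nucleus, stood at 10.68, 10.30 and 10.52 in the vps1 deletion strain, against 11.02, 10.72 and 10.63 in wild type. The groups overlapped, since vps1 deletion replicate 1 exceeded wild type replicate 3. The difference of -0.29 ± 0.14 (log2, SE) passed with the block (adjusted p = 0.227 without it and 0.0466 with it, limma). Without vps1 deletion replicate 2 or wild type replicate 1 it was -0.19 or -0.18. YDJ1, the main cytosolic J-protein, differed by -0.21 ± 0.12, with groups that did not overlap. APJ1 and XDJ1, J-proteins related to YDJ1, differed by -0.08 ± 0.09 and -0.037 ± 0.10.

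In mitochondria the disaggregase gene stood apart from the genes of the folding machinery. HSP78, the mitochondrial relative of HSP104, read 8.55, 8.44 and 8.69 in the vps1 deletion strain, against 7.56, 7.09 and 7.39 in wild type. All vps1 deletion arrays lay above all wild type arrays, and HSP78 rose by 1.21 ± 0.14 (log2, SE; adjusted p = 0.00174, limma). The call held without each array in turn (adjusted p between 8.22e-04 and 0.0114), as it did for BTN2 (2.64e-04 to 0.00213). HSP60, the matrix chaperonin, stood at 12.55, 12.16 and 12.55 in the vps1 deletion strain, against 12.93, 12.81 and 12.79 in wild type. The groups did not overlap, and the difference of -0.42 ± 0.13 passed only with the block (adjusted p = 0.0745 without it and 0.0180 with it, limma). HSP10, the cochaperonin of HSP60, differed by -0.16 ± 0.15. SSC1, the matrix Hsp70 that also drives protein import, differed by -0.20 ± 0.10, and its J-protein partner MDJ1 by 0.0010 ± 0.12.

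HSF1, the transcription factor gene of the heat shock response, did not pass. It stood at 8.47, 8.38 and 8.33 in the vps1 deletion strain, against 8.65, 8.56 and 8.54 in wild type, a difference of -0.19 ± 0.09 (log2, SE; adjusted p = 0.206, and 0.0888 with the block, limma). The groups did not overlap, and the difference was smaller than any of the 5 that passed. Transcript level does not report the activity of the Hsf1 protein, which the arrays did not measure.

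Of the 29 genes that did not pass, 26 had a 95% interval that excluded a 2-fold change in both directions. The 3 others, HSP26, HSP42 and HSP82, had intervals that reached past a 2-fold rise. For the large majority of chaperone genes the arrays therefore limit the difference on the quantile scale to less than 2-fold. On that scale 20 of the 34 differences lay between -0.25 and 0.25. This limit is relative to the shift of the deposited values, on which SSA4 differed by 0.94 and SNL1 by 0.83. Shares of all genes were not worked out for these counts, so they are not read as a trait of the chaperones.

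Paralogues were set against each other within each array, as the log2 signal of one minus that of the other. The size of such a ratio depends on the probes, so only its difference between strains was read. The ratio of BTN2 to CUR1 was 2.97, 2.36 and 3.00 in the vps1 deletion strain, against 1.10, 0.26 and 0.62 in wild type, a difference of 2.11 ± 0.32 (SE). The ratio of HSP82 to HSC82 was -2.63, -2.76 and -2.37 in the vps1 deletion strain, against -3.47, -4.03 and -3.51 in wild type, a difference of 1.08 ± 0.22. In both pairs the vps1 deletion arrays lay above all wild type arrays. The same held, with less distance, for CPR6 over CPR7 (0.50 ± 0.09), SSA1 over SSA2 (0.49 ± 0.15), SSA4 over SSA3 (0.47 ± 0.24) and SSB1 over SSB2 (0.08 ± 0.02). It did not hold for SSE2 over SSE1 (0.27 ± 0.36) or AHA1 over HCH1 (0.10 ± 0.13). In the exact 2-sided permutation test over arrays each of the 6 pairs without overlap had p = 0.1, the smallest that 3 against 3 arrays allow, and an adjusted p of 0.133 over the 8 pairs, so no pair could pass 0.05. For SSA4 over SSA3 the difference of the ratio between strains was 0.25 without wild type replicate 2, and 0.38 (adjusted p = 0.533) without vps1 deletion replicate 1. For SSB1 over SSB2 this difference was 0.030, with overlap, when the SSB1 probe sets were averaged. It was -0.022 with the unmarked SSB1 probe set, a choice made after seeing the data. The SSB1 probe set may share signal with SSB2, and cross-hybridization between the other pairs was not tested.

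**Figure D4:**
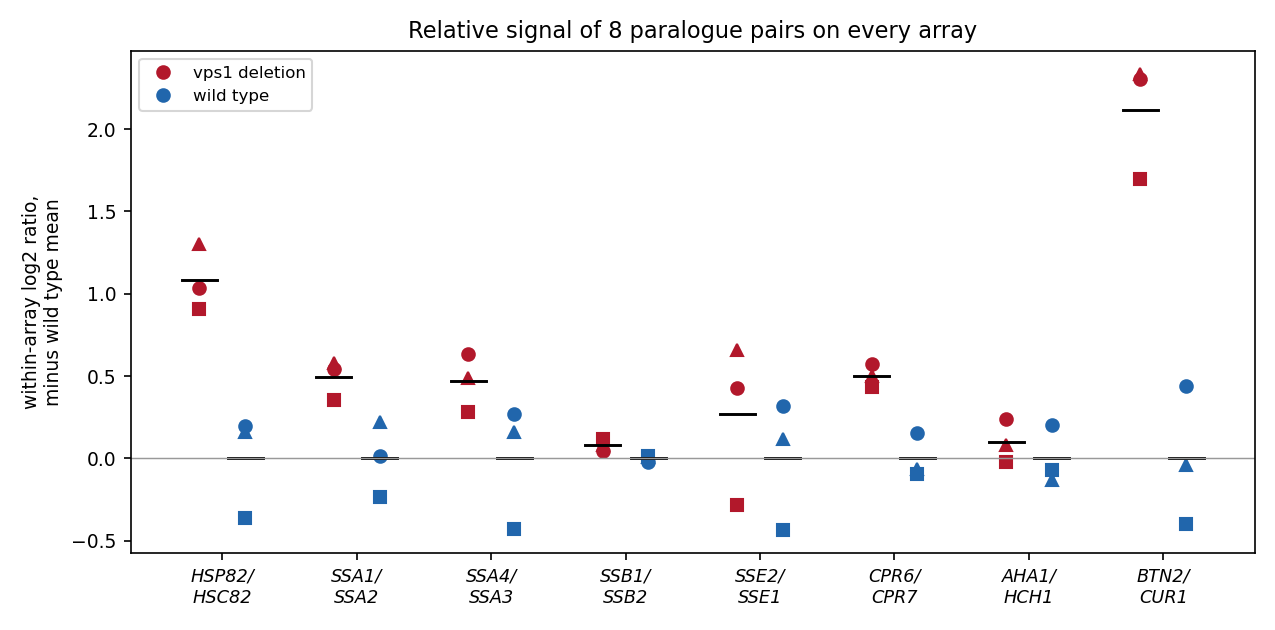
Within-array log2 ratio of 8 paralogue pairs on every array, with the wild type mean of each pair subtracted so that pairs share an axis; the vps1 deletion strain is red and on the left, wild type blue and on the right, marker shapes give the replicate number (circle 1, square 2, triangle 3) and black bars are means. BTN2/CUR1 and HSP82/HSC82 show the widest separation, 2.11 and 1.08, and SSE2/SSE1 and AHA1/HCH1 overlap.

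The arrays numbered 2 were low for many chaperone genes in both strains. Replicate 2 was the lowest vps1 deletion array for 22 of 34 genes (64.7%, against 37.8% of all genes) and the lowest wild type array for 14 (41.2%, against 28.6%). For 12 genes (35.3%, against 18.6%) it was the lowest in both strains, HSP26, HSP82, SSA1, SSA4 and HSP78 among them. The genes CUR1, SSE1 and APJ1 were instead highest on replicate 2 in both strains. What the arrays of a number share was not given in the labels.

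The other genes of protein folding and stress were described in 6 lists, of which 63 of 66 genes were measured. Over the 63 genes 4 rose and 4 fell, or 6.35% each, where 6.77% and 6.28% of all genes did, and with the block 12 rose and 11 fell, or 19.0% and 17.5%, where 14.4% and 16.4% did. These shares are near those of all genes. The rises among the 63 numbered 1 without vps1 deletion replicate 1 or 2 or wild type replicate 2, 0 without vps1 deletion replicate 3 and 8 without wild type replicate 1, and the falls 1 without vps1 deletion replicate 1 or 2 or wild type replicate 2. Genes of the Hsp70 system of the endoplasmic reticulum held 3 of the 4 rises, among 7 measured, where 6.77% of all genes rose. With the block 4 of the 7 rose, where 14.4% of all genes did. The fourth was KAR2, the main Hsp70 there (0.34, adjusted p = 0.0830 without the block and 0.0201 with it, limma). LHS1, an Hsp70-like exchange factor for Kar2, rose by 0.84 ± 0.20 (log2, SE; adjusted p = 0.0324, limma), SIL1, another exchange factor, by 0.49 ± 0.10 (0.0215), and the J-protein gene JEM1 by 0.46 ± 0.11 (0.0341). All 3 had vps1 deletion arrays wholly above wild type. The median of the 7 was 0.34, against -0.041 over all genes.

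Of 14 genes for the CCT chaperonin, which folds actin and tubulin, and for prefoldin, CCT5 fell by 0.38 ± 0.10 (log2, SE; adjusted p = 0.0411, limma) and the others did not pass, while 2 fell with the block. Of 13 genes for ribosome-linked chaperones and further J-proteins BTT1, a subunit of the nascent polypeptide-associated complex, fell by 0.56 ± 0.13 (0.0270), and with the block 2 rose and 2 fell. Of 10 further mitochondrial chaperone genes PAM18, a J-protein of the import motor, fell by 0.55 ± 0.15 (0.0487), and with the block 1 rose and 2 fell. Of 6 further Hsp90 cochaperone and prolyl isomerase genes none passed, 2 had an unadjusted p under 0.05 and the same number fell with the block. SGT1, a cochaperone of kinetochore and ubiquitin ligase assembly, had the smallest p there, with a difference of -0.31 ± 0.09 (adjusted p = 0.0722, and 0.0228 with the block). Of all genes 6.77% rose and 6.28% fell without the block, and 14.4% rose and 16.4% fell with it. On the deposited values CCT5, BTT1 and PAM18 were not lower. Their differences there were 0.15, 0.039 and 0.0015, and none passed.

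The list of other heat shock and general stress genes was split. Of 13 measured, UBI4, the stress-inducible polyubiquitin gene, rose by 0.77 ± 0.15 (log2, SE; adjusted p = 0.0149, limma), and MSN4, a transcription factor gene of the general stress response, fell by 0.91 ± 0.12 (0.00359). MSN4 stood at 7.57, 7.59 and 7.32 in the vps1 deletion strain, against 8.39, 8.58 and 8.24 in wild type, and it was also lower on the deposited values, by a difference of -0.33. MSN2, the gene of the other general stress factor, differed the other way, by 0.30 ± 0.09, without overlap of the groups. It did not pass without the block and rose with it (adjusted p = 0.0788 and 0.0242, limma). With the block 5 of the 13 rose and 3 fell, or 38.5% and 23.1%, where 14.4% and 16.4% of all genes did. The median difference was 0.30, with a range of -0.91 to 1.00, and the median SD over the 3 arrays was 0.27 in the vps1 deletion strain and 0.29 in wild type, against 0.13 and 0.15 over all genes.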

How the data were processed

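Affymetrix yeast arrays were hybridized with biotin-labelled cRNA from 100 ng RNA, per the labels' protocols. The deposited values are log2 signals, 1 per probe set and array. GCOS, RMA and limma are named in the submitters' processing notes; what each did, and how arrays were scaled, is not stated there.

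All 10928 probe sets were quantile normalized over the 6 arrays. Of 7244 probe sets with 1 gene symbol, 5498 matched a gene of the S288C R64 table through the Entrez ID; for 47 genes with several, the brightest on average was used. Background was set per array at the 95th percentile of the 1746 unmatched probe sets. Genes were tested with limma 3.58.1 in R 4.3.3 (lmFit, eBayes, Benjamini-Hochberg over 5449 genes), checked on simulated data. The replicate number served as a block in an alternative fit, since deviations from the strain means correlated between same-numbered arrays over all genes (0.67, 0.65 and 0.29); the labels give the numbers and not what they share. Other alternatives were the scaling, the probe set rule, a filter on dim genes, the variance model and leaving out each array. Precision is limited by having 3 arrays per strain.

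The members and lists were chosen with earlier results of these data known. A probe set choice without suffix-marked probe sets was added after seeing the data and left 3 members higher and 2 lower. All members are named, with, from each other list, up to 4 genes that passed or the 1 with the smallest p. KAR2 and MSN2 are named in addition. FPR1, HSP32 and HSP33 were not analysed here.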

Additional observations from a re-analysis of the deposited data

How the results depend on the processing

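Calls of BTN2 and HSP78 held under each alternative tried. On the values as deposited 25 of the 34 chaperone genes were higher and 0 lower, with a median of 0.50, as were 51 higher and 1 lower of the 63 other genes and 4142 higher and 52 lower of all genes; there the 19 chaperone genes with negative differences had positive ones, namely AHA1 (0.44), APJ1 (0.47), CPR7 (0.22), CUR1 (0.12), HCH1 (0.33), HSC82 (0.17), HSF1 (0.37), HSP10 (0.39), HSP60 (0.11), SIS1 (0.25), SSA2 (0.21), SSA3 (0.47), SSB1 (0.55), SSB2 (0.44), SSC1 (0.32), SSE1 (0.44), STI1 (0.49), XDJ1 (0.52) and YDJ1 (0.31). Median centring put the median of all genes at -0.15. It put 32.4% of calls on the higher side, against 51.9% on the quantile scale, 98.8% as deposited and 61.7% with cyclic loess. It called 535 genes lower, 3 chaperone genes lower (CPR7 beside HSC82 and SSA2) and 2 of the other genes higher. It also turned FES1 (-0.11), MDJ1 (-0.11) and SBA1 (-0.11). Cyclic loess called 0 chaperone genes lower and 2 of the other genes lower, and turned SSB1 (0.045) and XDJ1 (0.0095). With the replicate number as a block 8 chaperone genes were higher and 6 lower, 12 and 11 of the other genes, and 784 and 892 of all genes. At a difference of at least 2-fold 117 genes were higher and 42 lower, 0 chaperone genes lower, and 0 of the other genes higher or lower. Leaving out 1 array at a time gave 2 to 5 chaperone genes higher (5 without wild type replicate 1, with HSP42 and HSP82, and 2 without vps1 deletion replicate 3) and 0 lower, 0 to 8 of the other genes higher and 1 to 3 lower, and 199 to 432 of all genes higher and 123 to 355 lower. Of genes near 0, it moved AHA1 between -0.25 and 0.086, FES1 between -0.030 and 0.067, MDJ1 between -0.086 and 0.080, SBA1 between -0.030 and 0.13, SSB1 between -0.059 and 0.035, STI1 between -0.15 and 0.080 and XDJ1 between -0.10 and 0.029. The cause of these shifts was not tested. Of the differences of paralogue ratios between strains only that of SSB1 over SSB2 changed sign. It was -0.022 with probe sets that carry no suffix for shared probes, an alternative chosen after seeing the data.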
